A study of Mus musculus with 21 samples.

Results

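The leukocyte integrins described here are 10 genes chosen by name: Itgam, Itgax, Itgal, Itgb2, Itgb1, Itga4, Itga5, Itgav, Itgb5 and Itgb7. All 10 were measured, among 12393 genes, by 23 of the array's 22690 probe sets, and each gene was read from its brightest probe set. The cells were RAW 264.7, a mouse tumour line that resembles macrophages, kept for 2 h in serum-free medium with amorphous silica particles. The groups were cells given 10 nm silica at 5, 20 or 50 µg/ml (low, mid and high dose), cells given 500 nm silica at 250, 500 or 1000 µg/ml (low, mid and high dose), and untreated cells, which served every dose as control. Each of the 7 groups had 3 Affymetrix arrays. The line carries no stated genetic change, all groups came from this 1 line, and it is not stated if untreated cells were also put in serum-free medium. Whether replicates came from separate cultures is not stated either. The p-values therefore reflect only how far these arrays spread, which may be technical.

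Integrins are adhesion receptors made of 1 alpha and 1 beta chain, which couple ligands outside the cell to the actin cytoskeleton through talin and kindlin. The beta chain CD18 (Itgb2) is confined to leukocytes and pairs with CD11b (Itgam) in complement receptor 3, with CD11c (Itgax) in complement receptor 4 and with CD11a (Itgal) in LFA-1. The beta 1 chain (Itgb1) pairs with alpha 4 (Itga4) to bind VCAM-1 and with alpha 5 (Itga5) to bind fibronectin, alpha v (Itgav) pairs with beta 5 (Itgb5) to bind vitronectin, and beta 7 (Itgb7) pairs with alpha 4 to bind the gut addressin MAdCAM-1. On macrophages these receptors serve adhesion, migration and the uptake of opsonised particles and dead cells.

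At the 500 nm high dose messenger RNA of Itga5 and Itgax rose and that of Itgav and Itgb5 fell, relative to untreated cells. Quantile normalization ended the calls of Itgax and Itgb5. The fall of Itgav rests on its brightest probe set, as its dimmer ones differed the other way without passing. The second, dimmer probe set of Itga5 differed by 0.48 log2 at this dose and was not called (limma adjusted p over all probe sets 0.126). With 10 nm silica Itga5 rose at the mid and high doses, on its brightest probe set only. Itgb2 differed among the 7 groups by an F-test without passing in any single comparison with untreated cells, and Itgam, Itgal, Itgb1, Itga4 and Itgb7 passed in none, although a second probe set of Itga4 fell. These calls come from a fit by group alone. With the replicate number as a block, for which the arrays of the 10 nm mid and high doses met the criterion of pairing, 4 members passed at each of these doses: Itga5, Itgb2 and Itgb7 at both, with Itgax at the mid and Itga4 at the high dose. At the 500 nm high dose, where the criterion was not met, Itgam and Itga4 passed with the block as well. The promoter windows of the 4 members that passed against untreated cells are shown because, on their brightest probe sets, 2 rose and 2 fell. Each window runs from 250 bases before to 50 bases after the annotated start and is printed 5′ to 3′ on the gene's own strand, from RefSeq on GRCm38.p6, with capitals for motif matches on either strand. Windows were found for 8 of the 10 members.
Itga5, chr15:103366742-103367041, minus strand: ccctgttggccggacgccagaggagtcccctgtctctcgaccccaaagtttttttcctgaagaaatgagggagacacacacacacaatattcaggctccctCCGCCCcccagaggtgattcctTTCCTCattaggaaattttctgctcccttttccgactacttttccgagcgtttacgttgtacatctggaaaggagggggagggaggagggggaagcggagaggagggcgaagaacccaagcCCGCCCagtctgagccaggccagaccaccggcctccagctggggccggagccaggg
Itgax, chr7:128129300-128129599, plus strand: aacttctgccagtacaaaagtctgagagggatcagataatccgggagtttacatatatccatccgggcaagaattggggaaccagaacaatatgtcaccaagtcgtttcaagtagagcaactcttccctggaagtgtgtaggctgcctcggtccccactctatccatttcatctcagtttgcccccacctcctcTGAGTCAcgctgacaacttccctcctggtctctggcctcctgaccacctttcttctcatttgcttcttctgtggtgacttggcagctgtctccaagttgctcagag
Itgav, chr2:83724147-83724446, plus strand: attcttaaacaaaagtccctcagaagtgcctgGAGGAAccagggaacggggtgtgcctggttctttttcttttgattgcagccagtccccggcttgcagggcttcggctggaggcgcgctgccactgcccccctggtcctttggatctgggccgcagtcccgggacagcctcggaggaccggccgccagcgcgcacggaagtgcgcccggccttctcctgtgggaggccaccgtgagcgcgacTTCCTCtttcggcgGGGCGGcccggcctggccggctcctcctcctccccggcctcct
Itgb5, chr16:33829415-33829714, plus strand: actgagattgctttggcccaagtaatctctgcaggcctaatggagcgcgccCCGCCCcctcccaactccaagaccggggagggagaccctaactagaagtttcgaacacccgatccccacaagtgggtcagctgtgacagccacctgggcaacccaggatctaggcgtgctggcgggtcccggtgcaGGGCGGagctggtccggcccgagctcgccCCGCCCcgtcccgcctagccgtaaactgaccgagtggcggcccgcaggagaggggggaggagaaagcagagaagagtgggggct
The motifs searched on both strands were the AP-1 site TGANTCA, the PU.1 core GAGGAA, the GC box GGGCGG, the EGR site GCGNGGGCG, the cyclic AMP response element TGACGTCA, the NF-kB site and the CArG box; a GC box can overlap an EGR site. The Itga5 window held 1 PU.1 core and 2 GC boxes, the Itgax window 1 AP-1 site, the Itgav window 2 PU.1 cores and 1 GC box, and the Itgb5 window 3 GC boxes. Of all 32851 RefSeq windows of this length, 28.3% held the PU.1 core, 35.7% the GC box and 7.81% the AP-1 site. The other motifs had no match in the 4 windows and stood in 5.55% (EGR site), 4.51% (NF-kB site), 1.79% (cyclic AMP response element) and 1.63% (CArG box) of all windows. A match is a run of letters and was not tested as a binding site.

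The deposited values were log10 intensities, given here on the log2 scale, where a difference of 1 is 2-fold. Levels of different genes on such arrays cannot be compared, so only differences of the same probe set are. Marker levels are therefore given without ranking them: the 10 macrophage markers averaged between 3.73 log2 (Mrc1) and 13.30 (Csf1r), with Mertk at 3.83, Msr1 at 7.24 and Cd68 at 12.22, and the markers of the 6 other cell types examined averaged between 2.73 (Cdh1, epithelial) and 6.40 (Cd3e, T cell). Pearson correlations between arrays, taken across genes that are no independent replicates, were 0.983 to 0.998 within groups and 0.969 to 0.998 between groups. The arrays numbered 3 stood apart: when group means were subtracted, 57.3% of what varied lay on 1 component, on which replicate 3 was the extreme array in 7 of 7 groups. It had the narrowest spread of values in 7 of 7 groups, and in 5 of 7 the highest signal of the 3′ over the 5′ probe sets of the Gapdh and actin controls, a sign of RNA quality. Itga4, Itgam, Itgal and Itgb1 were lowest in replicate 3 in all 7 groups, by 0.73, 0.48, 0.24 and 0.26 log2 below the group mean on average in replicate 3. Itga5, Itgav and Itgb2 were lowest in replicate 3 in 6 of 7 groups, with mean deviations of -0.22, -0.13 and -0.12 log2. Results were therefore computed with and without those 7 arrays. Their part in the results was not tested otherwise. The spread of values also differed by group. The SD of the log2 values of an array averaged 2.616 in untreated cells, 2.504 at the 10 nm high dose and 2.538 at the 500 nm high dose. At the other doses it averaged 2.557 to 2.583. Single arrays spanned 2.582 to 2.642, 2.414 to 2.572 and 2.464 to 2.588 in the first 3 of these groups. How far this narrower spread bears on the calls was not tested.

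**Figure D1:**
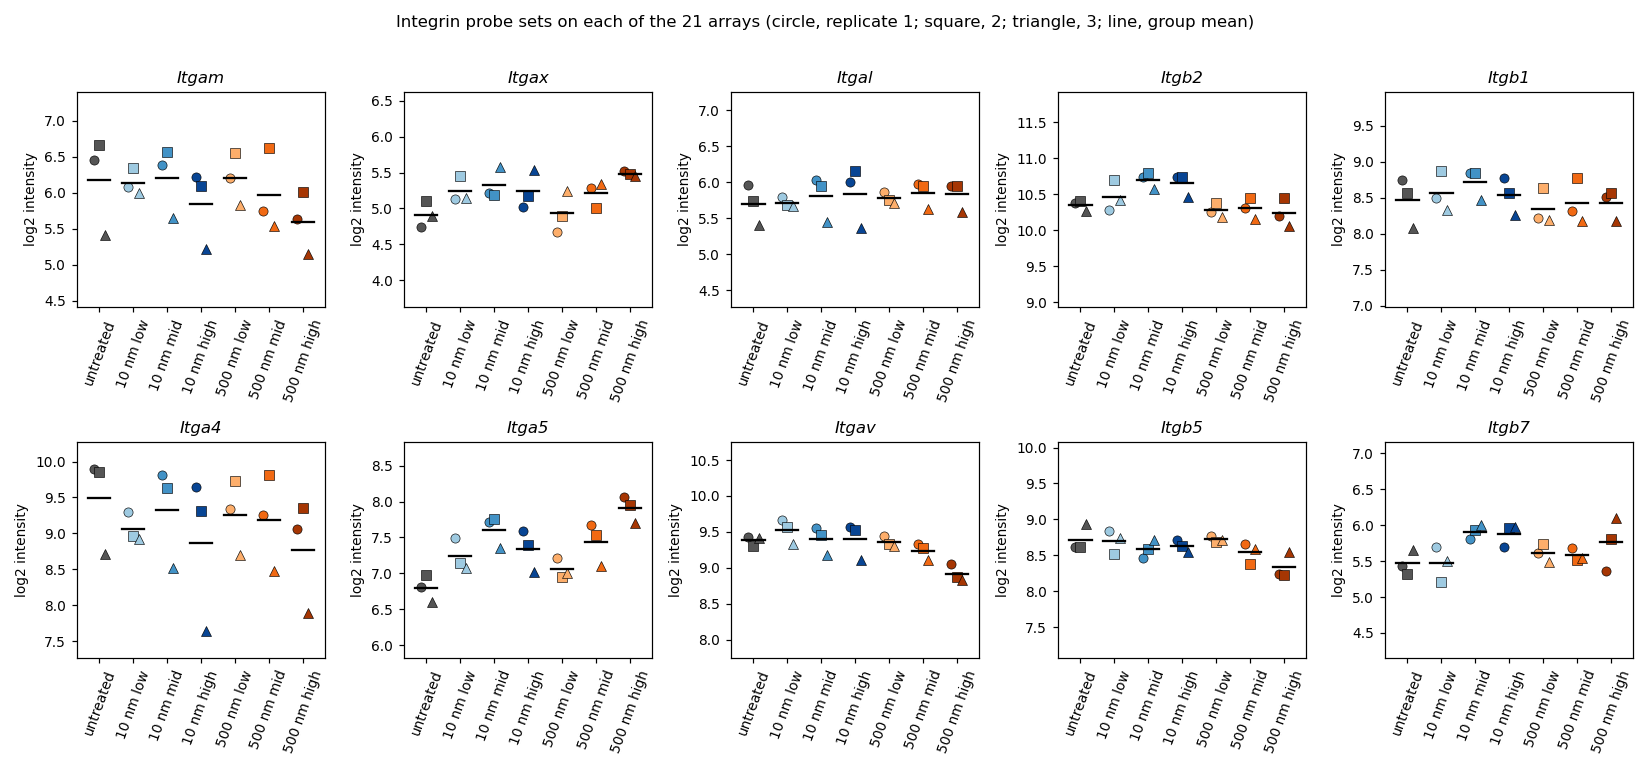
log2 intensity (vertical axis, each panel spanning the same range) of the 10 integrin genes on all 21 arrays by group, with untreated cells at the low end of the doses; circles, squares and triangles are replicates 1, 2 and 3 and lines are group means. Itga5 lies highest at the 500 nm high dose (7.70 to 8.06) and lowest in untreated cells (6.60 to 6.97), while the triangles lie lowest in all 7 groups for Itga4, Itgam, Itgal and Itgb1.

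Each dose was compared with untreated cells to ask which integrin messages differed after 2 h. A gene was called when limma's adjusted p, by Benjamini-Hochberg over the 12393 genes, was under 0.05. The 6 comparisons share the untreated arrays and are not independent of one another. At the 10 nm low dose 0 of 10 members were called (background over all genes 0.767%, and 1 member had an unadjusted p under 0.05). At the 10 nm mid dose 1 of 10 was called, higher (background 10.6% in either direction, 3.22% higher), and at the 10 nm high dose 1 of 10, higher (background 20.2% in either direction, 7.58% higher). With the replicate block 4 of 10 were called at the 10 nm mid dose, all higher (background 18% with the block), and at the high dose 3 higher and 1 lower (background 36.7% with the block). At the 500 nm low dose 0 of 10 were called (background 0.428%, 0 members at an unadjusted p under 0.05), at the 500 nm mid dose 0 of 10 (background 2.77%, 1 at an unadjusted p under 0.05), and at the 500 nm high dose 2 were called higher and 2 lower (background 15.3% in either direction, 5.31% higher and 10% lower). By the F-test over the 7 groups 3 members were called, Itga5, Itgav and Itgb2, against 16.2% of all genes. Members whose 3 arrays all lay above the 3 untreated arrays numbered 4 of 10 at the 10 nm mid dose (11.5% of all genes), 3 of 10 at the 10 nm high dose (16.9%) and 2 of 10 at the 500 nm high dose (15.2%), where 2 of 10 lay wholly below (15.9%). The members' median change was 0.11 log2 at the 10 nm high dose against 0.04 over all genes, and -0.08 at the 500 nm high dose against 0.07 over all genes.

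**Figure D2:**
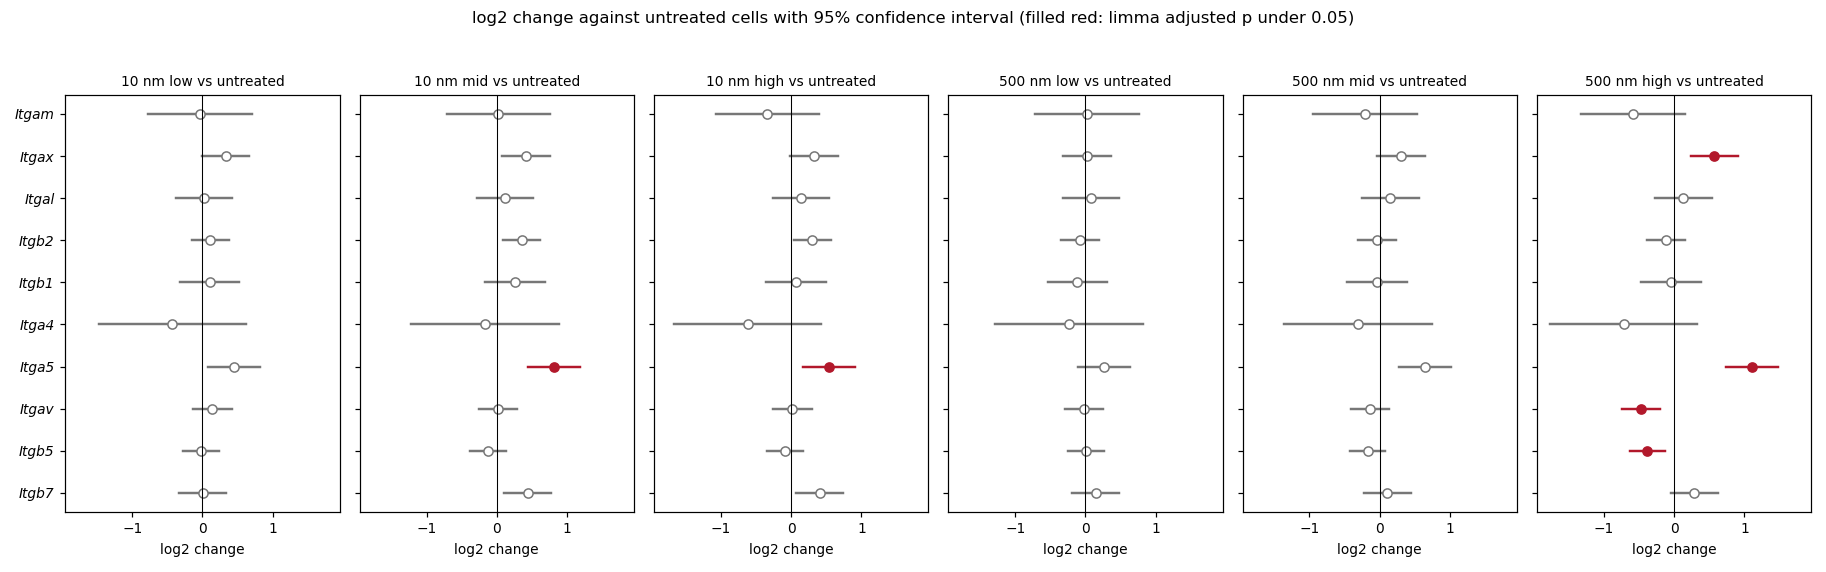
log2 change of each integrin gene (rows) against untreated cells at each of the 6 doses (panels), with 95% confidence intervals of the limma fit; filled red points have an adjusted p under 0.05. Itga5 is filled at the 10 nm mid, 10 nm high and 500 nm high doses, Itgax on the right and Itgav and Itgb5 on the left of 0 at the 500 nm high dose.

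Itga5, the alpha chain of the main fibronectin receptor, changed most among the 10. At the 500 nm high dose the 3 arrays read 8.06, 7.96 and 7.70 log2, against 6.82, 6.97 and 6.60 in untreated cells. At the 10 nm mid dose they read 7.71, 7.75 and 7.36, and at the 10 nm high dose 7.59, 7.40 and 7.02, against the same untreated arrays. All 9 of these treated arrays lay above all 3 untreated ones. The rise was 1.11 ± 0.17 log2 (SE) at the 500 nm high dose, which is 2.16-fold (adjusted p = 0.000166, 95% interval 0.74 to 1.48). It was 0.81 ± 0.17 at the 10 nm mid dose, 1.75-fold (adjusted p = 0.00379), and 0.54 ± 0.17 at the 10 nm high dose, 1.45-fold (adjusted p = 0.0363). Both larger calls held without any 1 of the 21 arrays. The call at the 10 nm high dose ended when untreated replicate 1 or 3, or 10 nm high replicate 1 or 2, was left out (adjusted p up to 0.115), and held without the 7 arrays numbered 3 (0.60, adjusted p = 0.00884).

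At the other doses Itga5 stayed short of the threshold. The 500 nm mid arrays read 7.68, 7.54 and 7.10 log2, a difference of 0.64 (adjusted p = 0.0554). Leaving out the 7 arrays numbered 3 made this a call (0.71, adjusted p = 0.0125). So did the replicate number as a block (adjusted p = 0.000608), although the arrays of this dose did not meet the criterion of pairing. The 10 nm low arrays read 7.49, 7.15 and 7.08, and the 500 nm low arrays 7.22, 6.94 and 7.01. The 10 nm low and 500 nm mid arrays all lay above the untreated ones, while the 500 nm low arrays overlapped them. In the order of the group means, untreated cells stood below the 500 nm low group by 0.26, and the 500 nm high group above the 10 nm mid group by 0.30, both steps larger than the SDs; no other neighbours in that order did.

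A second, dimmer probe set of Itga5 did not follow the first with 10 nm silica. Its differences from untreated cells were -0.31, 0.20 and 0.04 log2 at the 10 nm low, mid and high doses, where the brightest probe set gave 0.44, 0.81 and 0.54. With 500 nm silica it differed by -0.07, 0.08 and 0.48 at the low, mid and high doses, and was called at none of the 6. It read 5.75, 6.24 and 5.79 at the 500 nm high dose, against 5.51, 5.51 and 5.33 in untreated cells (adjusted p over all probe sets 0.126).

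Among the CD18 family, Itgax, the CD11c chain, rose at the 500 nm high dose. Its arrays read 5.52, 5.49 and 5.45 log2 there, against 4.74, 5.10 and 4.89 in untreated cells. The groups did not overlap, and the difference was 0.57 ± 0.16 (SE), 1.49-fold (adjusted p = 0.0208). The call ended without untreated replicate 1 or 3 or without 500 nm high replicate 1 (adjusted p up to 0.084), and held without the 7 arrays numbered 3 (0.58, adjusted p = 0.0198). Quantile normalization ended the call as well. The Itgax signal was dim on a scale of 2.13 to 14.43, and no detection calls show how far that limits the result.

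With 10 nm silica Itgax did not pass. It read 5.13, 5.45 and 5.14 at the low dose, 5.22, 5.19 and 5.58 at the mid dose and 5.01, 5.17 and 5.54 at the high dose. The low and mid arrays lay above all untreated arrays and the high arrays overlapped them. The differences were 0.33 (adjusted p = 0.738), 0.42 (0.119) and 0.33 (0.154), and with the replicate number as a block the mid dose passed (adjusted p = 0.0440). With 500 nm silica it read 4.67, 4.89 and 5.24 at the low dose and 5.29, 5.01 and 5.34 at the mid dose, both overlapping untreated cells.

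Itgb2, the shared CD18 chain, was higher with 10 nm silica without passing against untreated cells. Its arrays read 10.73, 10.80 and 10.57 log2 at the 10 nm mid dose and 10.75, 10.74 and 10.46 at the high dose, against 10.37, 10.41 and 10.27 in untreated cells. All 6 of these arrays lay above the untreated ones, as did those of 11.5% of all genes at the mid dose and 16.9% at the high dose. The differences were 0.35 ± 0.13 (adjusted p = 0.0933) and 0.30 ± 0.13 (adjusted p = 0.1004). With the replicate number as a block both passed (adjusted p = 0.00895 and 0.0141). At the 10 nm low dose it read 10.28, 10.69 and 10.42. With 500 nm silica the low dose arrays read 10.26, 10.38 and 10.19, the mid 10.31, 10.45 and 10.16 and the high 10.20, 10.45 and 10.06, all overlapping untreated cells. Its F-test call (adjusted p = 0.0471) was lost in 16 of the 21 fits that left out 1 array and without the arrays numbered 3 (0.0818).

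Itgam, the CD11b chain, lies next to Itgax on chromosome 7 but was not called with it. It averaged 5.59 ± 0.43 log2 (SD, n = 3) at the 500 nm high dose, 5.84 ± 0.54 at the 10 nm high dose and 6.18 ± 0.67 in untreated cells. The difference at the 500 nm high dose was -0.59 (adjusted p = 0.280, 95% interval -1.32 to 0.15) and was not called. It was lower in 500 nm high arrays than in the untreated array of the same number in all 3 pairs, by -0.82, -0.66 and -0.27. Without the arrays numbered 3 the difference was -0.74 and just passed (adjusted p = 0.0498). The difference also passed with the replicate number as a block (adjusted p = 0.0121), although the arrays of this dose did not meet the criterion of pairing. Its means at the other doses lay between 5.97 and 6.20.

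Itgal, the CD11a chain of LFA-1, varied least among group means. These lay between 5.72 and 5.85 log2 in treated groups, against 5.70 in untreated cells, and no 2 neighbouring means were further apart than their SDs. Its interval at the 500 nm high dose included 0, as at every dose.

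Itgav and Itgb5, the 2 chains of the vitronectin receptor alpha v beta 5, both fell at the 500 nm high dose. Itgav read 9.05, 8.87 and 8.83 log2 there, against 9.43, 9.30 and 9.41 in untreated cells. The groups did not overlap, and the difference was -0.47 ± 0.13 (SE), 1.38-fold lower (adjusted p = 0.0194). Itgb5 read 8.24, 8.22 and 8.55, against 8.61, 8.61 and 8.93 in untreated cells. Its difference was -0.38 ± 0.12, 1.30-fold lower (adjusted p = 0.0400), and again the arrays did not overlap.

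Both calls depended on single arrays. The Itgav call ended without untreated replicate 1 or 3 or 500 nm high replicate 2 or 3 (adjusted p up to 0.0762), and held without the arrays numbered 3 (-0.41, adjusted p = 0.0211). Its F-test call (adjusted p = 0.0369) was lost in 11 of the 21 fits that left out 1 array. The Itgb5 call ended without untreated replicate 3, 500 nm low replicate 2 or 3, or 500 nm high replicate 1 or 2 (adjusted p up to 0.164), and without the arrays numbered 3 (-0.38, adjusted p = 0.0613). Quantile normalization and median centring ended the Itgb5 call as well.

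At the remaining doses neither chain passed. Itgav read 9.67, 9.57 and 9.33 at the 10 nm low dose, 9.55, 9.46 and 9.18 at the mid dose and 9.57, 9.52 and 9.11 at the high dose. With 500 nm silica it read 9.45, 9.34 and 9.31 at the low dose and 9.33, 9.28 and 9.11 at the mid dose. Of these, all 5 groups overlapped untreated cells. Itgb5 read 8.84, 8.52 and 8.74, then 8.47, 8.59 and 8.71, then 8.72, 8.63 and 8.54 at the 10 nm low, mid and high doses, and 8.76, 8.69 and 8.72, then 8.66, 8.39 and 8.59 at the 500 nm low and mid doses. In the order of group means the 500 nm high group stood below the 500 nm mid group by 0.33 for Itgav and 0.21 for Itgb5, each more than the larger SD.

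Probe sets of these 2 genes did not behave alike. The 3 other probe sets of Itgb5 differed by -0.48, -0.31 and -0.22 at the 500 nm high dose, of which the first passed over all probe sets (adjusted p = 0.00429). That one read 7.30, 7.33 and 7.12, against 7.72, 7.74 and 7.73 in untreated cells. The 2 dimmer probe sets of Itgav differed the other way, by 0.07 and 0.30 (adjusted p = 0.896 and 0.310), so the fall of Itgav rests on its brightest probe set. The brighter of these 2 read 6.60, 6.91 and 6.06 at the 500 nm high dose, against 6.61, 6.69 and 6.06 in untreated cells, a full overlap.

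Itga4, the alpha chain of the VCAM-1 receptor, gave different answers by probe set. The brightest read 9.06, 9.36 and 7.89 log2 at the 500 nm high dose and 9.64, 9.32 and 7.64 at the 10 nm high dose, against 9.90, 9.86 and 8.71 in untreated cells. Replicate 3 was far below the others in each, and the differences of -0.72 and -0.62 were not called (adjusted p = 0.351 and 0.382). At the 10 nm high dose the replicate block made it a call (adjusted p = 0.0403), and without the arrays numbered 3 the 500 nm high difference passed (-0.67, adjusted p = 0.0384). With the block, whose criterion of pairing was not met there, the 500 nm high difference passed as well (adjusted p = 0.0250). A second probe set of nearly the same brightness, looked at after its values were seen, showed no such drop of replicate 3.

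That second probe set read 8.21, 8.32 and 8.002 at the 500 nm high dose and 8.77, 8.69 and 8.57 at the 10 nm high dose, against 9.07, 9.19 and 9.20 in untreated cells. The groups did not overlap. It fell by 0.98 ± 0.13 log2 (SE) at the 500 nm high dose (adjusted p over all probe sets 3.58e-05) and by 0.48 ± 0.13 at the 10 nm high dose (0.0156). It was also lower at the 500 nm high dose than at the 10 nm high dose (10 nm minus 500 nm 0.50, adjusted p = 0.0242) and the 10 nm mid dose (0.56, adjusted p = 0.0211). The third probe set, near the bottom of the scale at 2.85, differed by -0.15 at the 500 nm high dose (adjusted p = 0.463). The brightest Itga4 probe set averaged 9.06, 9.32 and 8.87 at the 10 nm low, mid and high doses and 9.25, 9.18 and 8.77 at the 500 nm doses, against 9.49 in untreated cells.

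Of the beta chains that pair with alpha 4, Itgb1 was called at no dose. It averaged 8.57, 8.72 and 8.54 log2 at the 10 nm low, mid and high doses and 8.35, 8.43 and 8.42 at the 500 nm doses, against 8.47 in untreated cells. Itgb7 averaged 5.91 ± 0.10 at the 10 nm mid dose and 5.87 ± 0.16 at the high dose, against 5.47 ± 0.17 in untreated cells (SD, n = 3 each). Both 10 nm groups lay above all untreated arrays, but the differences of 0.44 and 0.40 were not called (adjusted p = 0.0909 and 0.0784). With the replicate number as a block both passed (adjusted p = 0.0461 and 0.0406). Itgb7 averaged 5.47 at the 10 nm low dose, and 5.61, 5.58 and 5.76 at the 500 nm low, mid and high doses. Its signal was dim on a scale of 2.13 to 14.43.

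The dose trend within each size was a slope against log2 dose, so its unit is log2 change per doubling. With 500 nm silica 2 members sloped up and 1 down (background 8.2% in either direction, 2.83% up and 5.37% down). Itga5 rose by 0.42 ± 0.09 per doubling (adjusted p = 0.00348), Itgax rose by 0.28 ± 0.08 (0.0402), and Itgav fell by 0.22 ± 0.07 (0.0372). The Itga5 means were 7.06, 7.44 and 7.91 at the low, mid and high doses, those of Itgax 4.93, 5.21 and 5.48, and those of Itgav 9.36, 9.24 and 8.91. The Itga5 slope alone kept its call without any 1 array. That of Itgax ended without 500 nm low replicate 1 or 2, mid replicate 1 or any high replicate (adjusted p up to 0.218), and that of Itgav without any low replicate or high replicate 2 or 3 (up to 0.144). Both held without the arrays numbered 3, but median centring ended that of Itgav. On the second Itga5 probe set the 500 nm slope was 0.27 and was not called (adjusted p over all probe sets 0.109). The brighter of the 2 dimmer Itgav probe sets sloped the other way (0.10, 0.779). The second Itga4 probe set sloped down by 0.47 (0.000111). The slope of Itgb5 was -0.19 (adjusted p = 0.0585).

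With 10 nm silica 0 of 10 slopes were called (background 12.2%, and 1 member had an unadjusted p under 0.05). The Itga5 means were 7.24, 7.61 and 7.33 at the 10 nm low, mid and high doses, highest at the middle dose, and the slope was 0.04 (95% interval -0.07 to 0.15). The arrays of the mid and high doses overlapped.

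The sizes were compared in 3 pairs. Dose divided by diameter, a nominal surface area for equally dense spheres, stood at 1, 4 and 10 for the 10 nm low, mid and high doses and at 1, 2 and 4 for the 500 nm doses, so the low pair and the pair of 10 nm mid with 500 nm high were matched in it and the high pair was not. In the low pair 0 of 10 members were called (background 0.0888%, 0 at an unadjusted p under 0.05), and in the mid and high pair 0 of 10 (background 2.85%, 2 at an unadjusted p under 0.05). These counts use the brightest probe sets, and the second probe set of Itga4 did pass in the mid and high pair (0.56, adjusted p over all probe sets 0.0211). In the high pair 1 of 10 was called, higher with 10 nm silica (background 7.52% in either direction, 3.37% higher), and with the replicate block 3 of 10 (background 16.7% with the block).

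That member was Itgav. Its arrays read 9.57, 9.52 and 9.11 log2 at the 10 nm high dose, against 9.05, 8.87 and 8.83 at the 500 nm high dose. The groups did not overlap, and 10 nm minus 500 nm was 0.49 ± 0.13 (SE), 1.40-fold (adjusted p = 0.0262). The call ended without 10 nm high replicate 1 or 2 or 500 nm high replicate 2 or 3 (adjusted p up to 0.107), held without the arrays numbered 3 (0.59, adjusted p = 0.00436), and on the dimmer probe set was 0.19 and not called. Against the same 500 nm high arrays, the 10 nm mid arrays at matched nominal area gave 0.48 (adjusted p = 0.0526), which passed without the arrays numbered 3 (0.55, adjusted p = 0.0138).

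Itgb2 and Itga5 missed the threshold in opposite directions. Itgb2 was 10.75, 10.74 and 10.46 at the 10 nm high dose, against 10.20, 10.45 and 10.06 at the 500 nm high dose, without overlap (0.42, adjusted p = 0.0561). The 10 nm mid arrays gave 0.47 against the same group (adjusted p = 0.0579). Itga5 was 7.59, 7.40 and 7.02 at the 10 nm high dose, below all of 8.06, 7.96 and 7.70 at the 500 nm high dose (-0.57, adjusted p = 0.0535). With the replicate number as a block both high pair differences passed (adjusted p = 0.00341 for Itgb2 and 0.000977 for Itga5), and without the arrays numbered 3 Itga5 passed (-0.51, adjusted p = 0.0355) and Itgb2 did not (0.42, adjusted p = 0.0804). At the matched mid and high pair the Itga5 difference was -0.30 (95% interval -0.67 to 0.07).

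**Figure D3:**
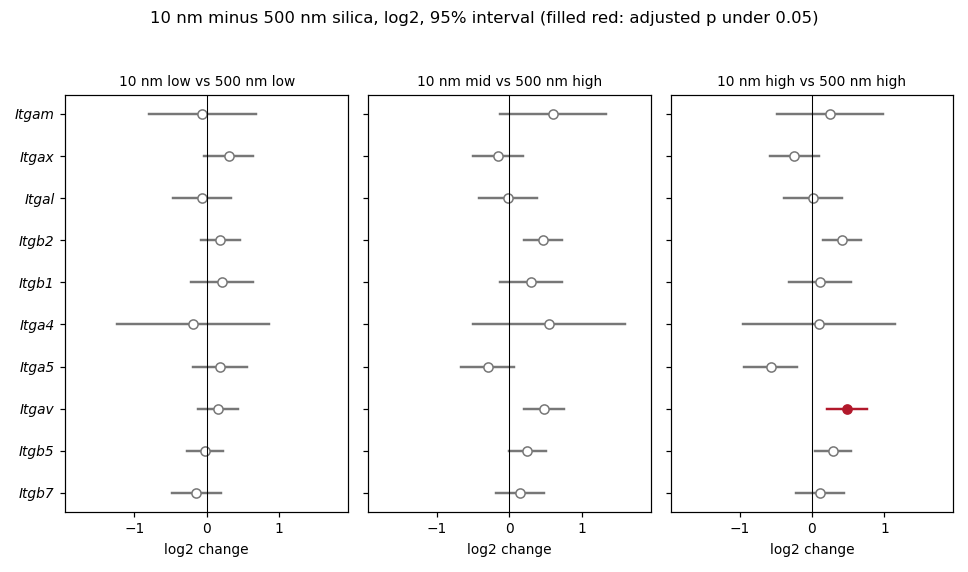
10 nm minus 500 nm silica for each integrin gene (rows) in log2 units with 95% confidence intervals, for the low pair, the pair of 10 nm mid with 500 nm high and the high pair. Itgav in the high pair (0.49) is the filled red point with an adjusted p under 0.05, and Itgb2 lies right and Itga5 left of 0 in the same panel.

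The other genes of integrin adhesion came from 5 lists. Of 11 other integrin subunits, 0 were called at either high dose or in the high pair by limma. Of all genes, 20.2% were called at the 10 nm high dose, 15.3% at the 500 nm high dose and 7.52% in the high pair. At an unadjusted p under 0.05 there were 0 of these subunits at the 10 nm high dose, 2 at the 500 nm high dose and 1 in the high pair. The platelet and osteoclast chain Itgb3 differed by 0.25 at the 10 nm high dose and 0.38 at the 500 nm high dose (adjusted p = 0.284 and 0.137). With the replicate block 2 of 11 were called at the 10 nm high dose, both higher (background 36.7%). The median change of these subunits was 0.16 at the 10 nm high dose and 0.25 at the 500 nm high dose, beside 0.04 and 0.07 over all genes.

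Of 24 integrin ligands and counter-receptors, 6 were higher and 1 lower at the 10 nm high dose, and 3 higher and 1 lower at the 500 nm high dose. The shares called were 29.2% and 16.7%, beside 20.2% and 15.3% of all genes. Postn, the matrix protein periostin, rose by 0.50 at the 10 nm high dose and 0.55 at the 500 nm high dose (adjusted p = 0.0163 and 0.0105). Jam2, a junctional adhesion molecule bound by alpha 4 beta 1, fell by 0.61 and 0.54 (adjusted p = 0.000125 and 0.000443). Ccn1, a matricellular ligand of alpha v integrins, rose by 0.49 at the 10 nm high dose (adjusted p = 0.0172), and Vcam1, the ligand of alpha 4 beta 1, by 0.44 at the 500 nm high dose (0.0373). The signals that rose were dim on a scale of 2.13 to 14.43. Postn averaged 5.31 and 5.36 log2 at the 10 nm and 500 nm high doses against 4.81 in untreated cells, Ccn1 4.04 against 3.54 and Vcam1 4.96 against 4.53. Quantile normalization ended the calls of Postn (0.30, adjusted p = 0.131) and Ccn1 (0.31, 0.0911) at the 10 nm high dose and of Vcam1 at the 500 nm high dose (0.27, 0.179), and the most variable probe set also ended that of Vcam1 (0.47, 0.107). These rises also rested on single arrays: Postn was lost without untreated replicate 2 or 10 nm high replicate 3 (adjusted p = 0.106 and 0.0563), Ccn1 without 10 nm high replicate 3 (0.0735), and Vcam1 without any 1 of its 6 arrays (up to 0.108) or the arrays numbered 3 (0.117). Postn at the 500 nm high dose was lost without untreated replicate 2 or 500 nm high replicate 1 (0.0721 and 0.0510).

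Of 22 genes of integrin activation, 2 were lower at the 10 nm high dose and 3 lower at the 500 nm high dose, with 0 higher. The shares called, 9.09% and 13.6%, lay below the 20.2% and 15.3% of all genes. In the high pair 3 were higher and 1 lower with 10 nm silica (18.2%, beside 7.52% of all genes). With the replicate block 2 were higher and 4 lower at the 10 nm high dose (27.3%, beside 36.7% of all genes). Rassf5, the Rap1 effector RAPL that drives LFA-1 activation, fell by 0.58 at the 10 nm high dose and by 0.83 at the 500 nm high dose (adjusted p = 0.00119 and 3.74e-05). Dok1, an adaptor that competes with talin for integrin tails, fell by 0.88 at the 10 nm high dose (adjusted p = 0.000220). At the 500 nm high dose Sipa1, a Rap1 inhibitor, fell by 0.87 (adjusted p = 8.74e-05) and Rapgef1, a Rap1 activator, by 0.66 (0.0119). The fall of Rapgef1 was lost without untreated replicate 3, 500 nm high replicate 3 (adjusted p = 0.0706 and 0.0580) or the arrays numbered 3 (0.104), and its most variable probe set differed the other way (0.145, adjusted p = 0.845).

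Of 36 genes of adhesion signalling, 4 were higher and 2 lower at the 10 nm high dose, and 0 higher and 4 lower at the 500 nm high dose. The shares called, 16.7% and 11.1%, lay below the 20.2% and 15.3% of all genes. In the high pair 6 were higher and 2 lower with 10 nm silica (22.2%, beside 7.52% of all genes). With the replicate block 6 were higher and 8 lower at the 10 nm high dose (38.9%, beside 36.7% of all genes). Lims2, the focal adhesion protein PINCH2, rose by 0.85 at the 10 nm high dose (adjusted p = 8.98e-05), while the Rac exchange factors Dock1 and Vav3 fell by 0.58 and 0.56 (0.00839 and 0.00256). At the 500 nm high dose the adaptor paxillin (Pxn) fell by 0.79, the ubiquitin ligase Cbl by 0.68 and the kinase Syk by 0.60 (adjusted p = 0.00181, 0.00335 and 0.00254). Pxn, Cbl, Syk and Vav3 have several probe sets, and the most variable one of each was not called (differences 0.05, 0.05, -0.59 and -0.62, adjusted p = 0.961, 0.930, 0.567 and 0.127).

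Of 14 membrane partners of integrins, 3 were higher and 3 lower at the 10 nm high dose, and 4 higher and 2 lower at the 500 nm high dose. The share called was 42.9% at both doses, beside 20.2% and 15.3% of all genes. The 2 genes that changed most in these 5 lists were here. Plaur, the urokinase receptor that associates with complement receptor 3, rose by 2.19 ± 0.30 log2 (SE) at the 10 nm high dose, 4.55-fold, and by 1.78 ± 0.30 at the 500 nm high dose, 3.44-fold (adjusted p = 3.77e-05 and 0.000357). The hyaluronan receptor Cd44 rose by 1.54 at the 10 nm high dose, 2.91-fold, and by 0.54 at the 500 nm high dose (adjusted p = 1.9e-06 and 0.0338), and differed between the high doses (10 nm minus 500 nm 0.9998, adjusted p = 0.000709). The tetraspanin Cd151 fell by 0.65 at the 10 nm high dose (adjusted p = 0.000146), but its most variable probe set rose by 0.81 (0.0161). At the 500 nm high dose Slc3a2, the CD98 heavy chain, rose by 0.87 (0.000385) and the tetraspanin Cd9 by 0.94 (0.0109). The Cd9 rise was lost without untreated replicate 3 or 500 nm high replicate 2 (0.0643 and 0.0614).

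**Figure D4:**
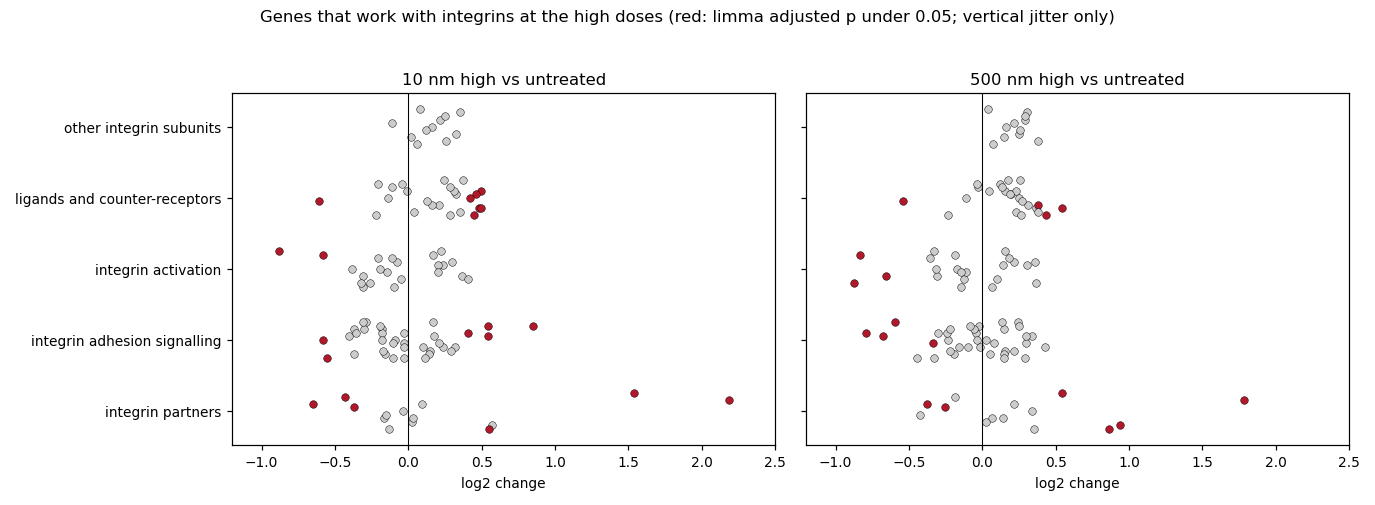
log2 change of the genes that work with integrins (points, 1 per gene, moved up and down only for legibility) at the 10 nm high and 500 nm high doses against untreated cells; red points have an adjusted p under 0.05. The row of 11 other integrin subunits holds no red point, and the 2 points farthest right at the 10 nm high dose are Plaur (2.19) and Cd44 (1.54).

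Across the 7 group means, among 2002 other genes that differed by the F-test, the patterns closest to Itga5 were those of Abhd10, Atp6v1e1 and Aopep (Pearson r = 0.992, 0.991 and 0.991). Those closest to Itgav were Herc2, Baz1b and Ptprs (0.984, 0.982 and 0.982). With 7 means and so many genes searched, values this high describe likeness only.

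In a bulk sample fewer cells of a type and less RNA per cell cannot be told apart. The macrophage markers were called at neither high dose (0 of 10 each), and their summed linear intensity spanned 29027 to 32128 at the 10 nm high dose and 28716 to 31091 at the 500 nm high dose, against 30259 to 34211 in untreated cells. Of the markers of other cell types, 1 of 7 neutrophil markers was higher at each high dose. So were 1 of 6 epithelial markers at the 10 nm high dose and 1 of 6 fibroblast markers at the 500 nm high dose. At either high dose 0 of 9 T cell, 0 of 5 B cell and 0 of 5 dendritic cell markers were called. Over all genes 20.2% were called at the 10 nm high dose (7.58% higher) and 15.3% at the 500 nm high dose (5.31% higher). With the replicate block at the 10 nm high dose, 4 of 7 neutrophil, 3 of 6 fibroblast, 2 of 5 dendritic cell, 2 of 9 T cell, 1 of 5 B cell and 1 of 6 epithelial markers were higher and 1 of 10 macrophage markers lower (background 36.7%). The summed neutrophil markers spanned 131 to 181 at the 10 nm high dose and 132 to 163 at the 500 nm high dose, against 111 to 129 in untreated cells. At the 10 nm high dose the summed fibroblast markers spanned 134 to 198, against 103 to 129.8 in untreated cells, and the dendritic cell markers 155 to 174, against 129 to 152. The epithelial markers spanned 103 to 111 at the 500 nm high dose, against 88.2 to 96.5 in untreated cells. These sums lay wholly above those of untreated cells, while the other sums of non-macrophage markers overlapped them at both high doses, and their part in the results was not tested. The 3′ over 5′ difference of the control transcripts averaged 0.49 ± 0.40 log2 at the 10 nm high dose and 0.31 ± 0.20 at the 500 nm high dose, against 0.49 ± 0.57 in untreated cells (SD, n = 3 each), with overlapping values.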

How the data were processed

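Titles and source names gave each of the 21 arrays its group. RNA, per the labels' protocols, was purified on columns and labelled with biotin from an oligo-dT primer, which favours 3′ ends. The authors deposited log10 values made with RMA, per the submitters' processing notes; its version is not given in the sources used here. The base was read from the values (0.641 to 4.34): base 10 puts the brightest at 22019 intensity units and base 2 at 20.3. Multiplied by 3.32, the deposited values became log2 values of 2.13 to 14.43, and each fold rests on that reading. The plan foresaw linear values. Arrays have no depth, and their number limits the precision. There were no detection calls.

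The platform annotation gave 1 symbol for 20380 of 22690 probe sets, several for 691 and none for 1555, beside 64 controls; 20351 matched RefSeq (GRCm38.p6) by gene ID and 0 symbols changed. The probe set with the highest mean stood for a gene, giving 12393 genes, 4956 with several probe sets. limma 3.58.1 in R 4.3.3 fitted group alone on 21 arrays (14 residual and 4.80 prior degrees of freedom, median residual SD 0.184), with 11 two-sided comparisons, an F-test and Benjamini-Hochberg adjustment over genes. The fit was tested on simulated data. Python 3.11.15 and matplotlib 3.10.9 drew the figures.

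Members and lists were chosen with earlier results of these data known. The rule named all members, those called or with an F-test call array by array, the 3 largest called changes per list and high dose, and for the 2 members of smallest F-test p the 3 genes most like them. Replicate numbers were taken as pairing samples where every same-numbered pair's deviations from the group means correlated above 0.1, which held for the 10 nm mid dose (0.53, 0.43 and 0.68) and 10 nm high dose (0.46, 0.53 and 0.72) against untreated cells and for the high pair (0.28, 0.57 and 0.70). Alternatives were that block, quantile normalization, median centring, the most variable probe set, genes under the 30th percentile left out, array weights, a trended prior, each array left out and, chosen after seeing the data, the 7 arrays numbered 3 left out. Promoter sequences are RefSeq's.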

Additional observations from a re-analysis of the deposited data

Results flagged for a closer look

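Itgav differed between the high doses of the 2 particle sizes, which also differ in mass (50 and 1000 µg/ml) and in nominal surface area (10 and 4). 10 nm minus 500 nm was 0.49 log2 (limma adjusted p = 0.0262), and all 3 arrays of the 10 nm high dose lay above all 3 of the 500 nm high dose. The probe set behind it was the brightest of 3, and on the most variable one the call ended. It also ended without 10 nm high replicate 1 or 2 or 500 nm high replicate 2 or 3 (adjusted p up to 0.107). At matched nominal area, 10 nm mid minus 500 nm high was 0.48 and was not called (limma adjusted p = 0.0526).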

How the results depend on the processing

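Counts are of members called among 10, in the order 10 nm low, mid and high, then 500 nm low, mid and high against untreated cells, the low pair, the 10 nm mid with 500 nm high pair, the high pair, the 10 nm and the 500 nm slope and the F-test, and were 0, 1, 1, 0, 0, 4, 0, 0, 1, 0, 3 and 3 as reported. With the replicate number as a block they were 1, 4, 4, 0, 1, 6, 0, 3, 3, 1, 5 and 5; outside the 3 comparisons named above the numbers are shared without a known pairing, and 12 of 21 arrays correlated best with an array of their own number. With array weights, whose estimation stopped before full convergence, they were 1, 3, 5, 0, 2, 6, 0, 5, 6, 3, 5 and 7. Quantile normalization gave 0, 2, 2, 0, 1, 2, 0, 2, 3, 0, 3 and 3, median centring 0, 2, 3, 0, 1, 3, 0, 1, 3, 1, 2 and 3, and the most variable probe set 0, 1, 1, 0, 0, 3, 0, 0, 0, 0, 3 and 1. Leaving out dim genes gave 0, 1, 1, 0, 1, 4, 0, 2, 3, 0, 4 and 3, a trended prior 0, 1, 1, 0, 0, 4, 0, 2, 2, 0, 3 and 3, and leaving out the arrays numbered 3 gave 0, 1, 1, 0, 1, 5, 0, 1, 3, 1, 4 and 3. With 1 array left out, counts spanned 0 to 0, 1 to 2, 0 to 2, 0 to 0, 0 to 1, 1 to 4, 0 to 0, 0 to 2, 0 to 3, 0 to 1, 1 to 4 and 1 to 3. On the most variable probe set Itgav reversed, to 0.0738 at the 500 nm high dose and 0.102 for the 500 nm slope, as did Rapgef1 (0.145), Pxn (0.0499) and Cbl (0.0472) at the 500 nm high dose and Cd151 (0.81) at the 10 nm high dose. Quantile normalization ended the Itgax call at the 500 nm high dose, quantile normalization and centring ended that of Itgb5, and centring ended the Itgav slope; the cause was not tested. Of 110 single values, 0 lost their call and 18 gained one under the block, against 0 and 26 under array weights. Over all genes array weights called 6254 at the 10 nm high dose and 4854 at the 500 nm high dose, against 2506 and 1898. Centring moved the median change of all genes from 0.04 to 0.14 at the 10 nm high dose and from 0.07 to 0.17 at the 500 nm high dose. The arrays give no detection call, so how far dim signals limit a result could not be set.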
